A study of Caenorhabditis elegans with 2 samples.

Results

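A set of 5 genes was followed through the binding data of the protein ZK546.5 in larvae of the nematode Caenorhabditis elegans: ekl-4, hsr-9, ash-2, wapl-1 and htz-1. They were selected because each is a chromatin regulator gene with a strong peak at its start, and they share 4 peaks, since wapl-1 and htz-1 lie on either side of 1 of them. The genes are 5 of 19985 protein-coding genes in the annotation, and their peaks are 4 of the reproducible peaks of the study, which hold 300 others. The genes were selected on the signal and rank of these peaks, so both are given below as a description and no test was run on them.

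Chromatin immunoprecipitation followed by sequencing was done on whole L4 larvae, the last larval stage, of mixed sex. The single group was strain OP231, genotype unc-119(ed3) III; wgIs231, a stable transgenic line in which ZK546.5 carries a C-terminal GFP-FLAG tag, the handle for the precipitation. There were 2 biological replicates, and no other strain, stage or treatment to compare with. The labels do not name the promoter that drives the transgene, and larvae were taken whole, so each peak is an average over all tissues.

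The 5 genes act at different steps on the nucleosome and the chromosome fibre. EKL-4 is the relative of mammalian DMAP1, a subunit shared by the NuA4/TIP60 acetyltransferase and by the SWR1-type machine that puts the histone variant H2A.Z into nucleosomes, and htz-1 encodes H2A.Z itself. ASH-2 is a core subunit of the COMPASS-type complexes that methylate lysine 4 of histone H3, WAPL-1 releases cohesin from chromosomes, and HSR-9 is the relative of mammalian 53BP1, an adaptor of the response to DNA breaks. Divergent gene pairs that share 1 upstream stretch are common in the compact genome of this worm.

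Sequence is shown first for the ash-2 peak and for the peak between wapl-1 and htz-1, because the same pair of words stood at their summits in the same order. Each line is the 200 bp window centred on the summit of the pooled list, read 5′ to 3′ on the plus strand of the ce11 genome (WBcel235), at II:11980220-11980419 for ash-2 and IV:4445807-4446006 for wapl-1 and htz-1. Capitals mark a gapped word (TGC and ATCTAA separated by 2 bases), then a palindromic word (TGGC and GCCA separated by 5 bases) and, in the wapl-1 and htz-1 window alone of these, the word ACCGTA.
ash-2: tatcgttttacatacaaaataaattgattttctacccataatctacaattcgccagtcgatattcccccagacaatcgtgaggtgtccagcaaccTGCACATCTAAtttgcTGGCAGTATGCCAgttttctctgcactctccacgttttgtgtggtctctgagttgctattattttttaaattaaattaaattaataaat
wapl-1/htz-1: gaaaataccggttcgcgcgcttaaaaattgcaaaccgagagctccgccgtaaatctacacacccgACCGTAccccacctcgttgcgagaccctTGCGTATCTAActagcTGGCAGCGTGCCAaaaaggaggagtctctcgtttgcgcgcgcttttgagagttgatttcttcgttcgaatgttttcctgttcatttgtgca
The gapped word covered the summit base in both windows, lying from 5 bases before it to 5 bases after it at ash-2, and from 7 before to 3 after at wapl-1 and htz-1. The palindromic word began 16 bases after the start of the gapped word in both. Both words were picked after these and other strong windows had been read and 29 spellings compared, and no factor is assigned to them.

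The same pair in close order was found at 3 other reproducible peaks, shown here as 40-base excerpts so that the spacing can be compared with the excerpts of the peaks above. They lie at IV:11149782-11149821 (nearest gene F01G4.6, rank 10), X:2242989-2243028 (rpl-11.2, a gene for a protein of the large ribosomal subunit, rank 12) and IV:1709938-1709977 (pbs-1, a gene for a subunit of the proteasome core, rank 29), all on the plus strand. Capitals mark the gapped and then the palindromic word.
F01G4.6: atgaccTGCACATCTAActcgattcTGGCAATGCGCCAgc
rpl-11.2: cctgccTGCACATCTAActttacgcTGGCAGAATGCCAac
ash-2: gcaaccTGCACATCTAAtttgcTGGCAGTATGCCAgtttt
wapl-1/htz-1: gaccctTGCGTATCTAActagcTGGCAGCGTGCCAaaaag
pbs-1: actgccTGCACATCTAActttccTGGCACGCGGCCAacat
The start-to-start spacing was 19 bases at F01G4.6 and rpl-11.2 and 17 at pbs-1. In all, 6 reproducible windows held both words, the remaining one at rank 11 with the palindromic word starting 46 bases before the gapped one, against 1 of 29696 other pooled windows. The bases in the gap of the first word were AC at ash-2, as in 12 of the 18 reproducible windows that held it, and GT at wapl-1 and htz-1, as in 3 of the 18.

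The measure of strength was the signal value that the authors' lists give for each peak. It is the authors' own value and how it was scaled from list to list is not stated, so signals are compared within a list only, by rank or as a percentage of the strongest peak. With no common scale, no mean or SD over the replicates was formed. The pooled list, made from both replicates, and each replicate list held 30000 peaks. The reproducible peaks, which the authors kept by a threshold on the irreproducible discovery rate (IDR, which reflects how well ranks hold from one replicate to the other), were exactly the strongest of the pooled list. Their signal ran from 1668 down to 32.2 with a median of 48.2, while the median over all pooled peaks was 10.3. The weaker entries of the pooled list may be background, and read depth is unknown because the lists hold no read numbers.

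The ekl-4 peak was the strongest of every list. It spanned 420 bp at I:14469136-14469555, and its signal was 1668 in the pooled list, 973.5 in replicate 1 and 694 in replicate 2. That pooled value was 162 times the median of its list. The hsr-9 peak spanned 448 bp at I:9625843-9626290, with signals of 1006 in the pooled list, 558 in replicate 1 and 442 in replicate 2. Its ranks were 4, 3 and 6, and stood at 60.3%, 57.3% and 63.8% of the strongest peak. The gene for the DNA-break adaptor carried a peak below that of ekl-4 in all 3 lists.

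The ash-2 peak spanned 403 bp at II:11980079-11980481, with signals of 728 in the pooled list, 391.7 in replicate 1 and 341 in replicate 2. It held rank 14 in each of the 3 lists. The peak between wapl-1 and htz-1 spanned 382 bp at IV:4445710-4446091, with signals of 639 in the pooled list, 317 in replicate 1 and 325 in replicate 2, at ranks 17, 17 and 16. As shares of the strongest peak, ash-2 stood at 43.7%, 40.2% and 49.1%, and wapl-1 and htz-1 at 38.3%, 32.6% and 46.9%. The order of the 4 peaks was the same in the pooled list and in both replicates, and the relative height of the weaker 3 was greater in replicate 2 than in replicate 1. With 1 value per replicate and no error given for a signal, whether neighbours in this order differ could not be tested.

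**Figure D1:**
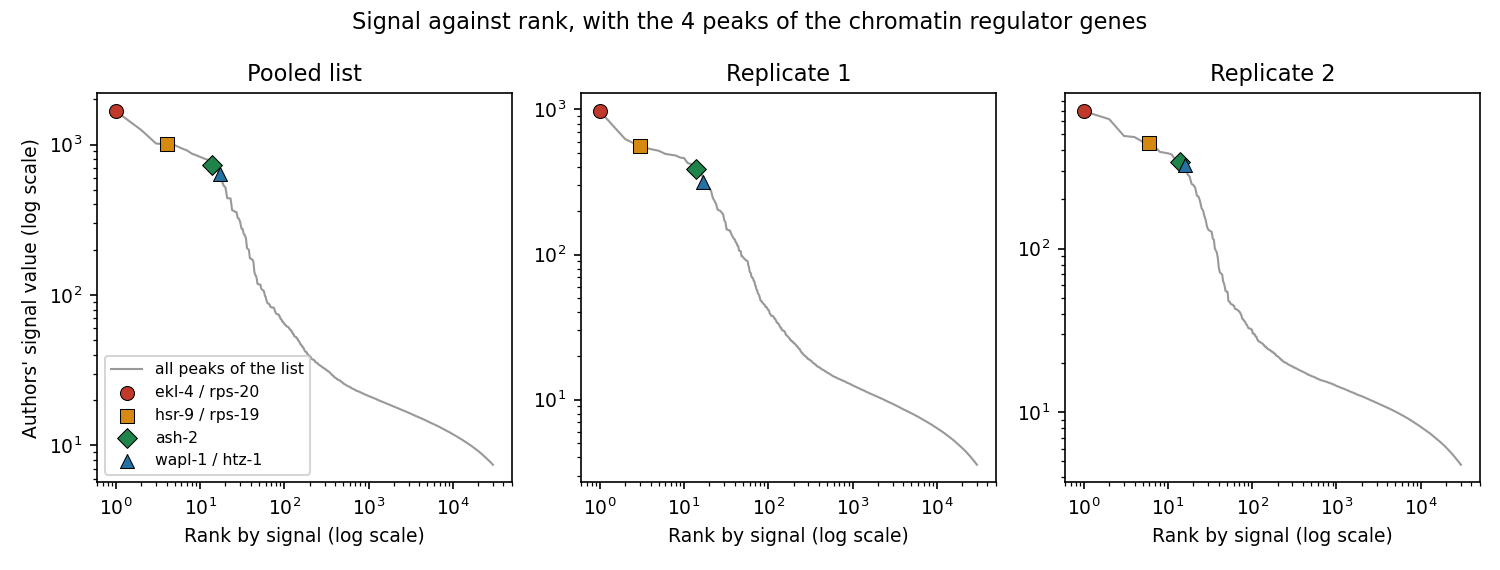
Authors' signal value of every peak against its rank in the pooled list and in the lists of replicates 1 and 2, both axes on log scales, with the 4 peaks of the chromatin regulator genes as coloured symbols. The ekl-4 peak is first in each panel, hsr-9 is at ranks 4, 3 and 6, ash-2 at rank 14 throughout, and wapl-1 with htz-1 at ranks 17, 17 and 16, all on the steep upper part of the curve.

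The reproducible peaks closest to these in rank over both replicates lay near genes of mixed function, and each is named here by its nearest protein-coding gene. For ekl-4 they were wwp-1 (pooled rank 2), a ubiquitin ligase gene, and tba-2 (rank 3), an alpha-tubulin gene, with summed rank differences of 2 and 6. For hsr-9 they were tba-2 and icd-2 (rank 6), each with a sum of 3. For ash-2 they were dpm-3 (rank 15) and vig-1 (rank 13), with sums of 2 and 4, and for wapl-1 and htz-1 egl-30 (rank 16), a G-protein alpha subunit gene, and dpm-3, with sums of 2 and 3. No other gene of the chromatin lists below was among these neighbours.

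All 5 genes had a summit, the base of highest signal in a peak, just upstream of an annotated 5′ end. From the pooled summit at 14469348, the first 5′ end of ekl-4 (WBGene00013676, I:14469500-14476894, plus strand) lay downstream at 14469500. Replicate 2 put the summit at the same base, and replicate 1 put it 6 bp nearer, at 146 bp. For hsr-9 (WBGene00002027, I:9626241-9630848, plus strand) the summit at 9626078 was 163 bp upstream, and 161 and 169 bp in the replicates. These are annotated 5′ ends. Many worm transcripts are trans-spliced, so the true start can lie further upstream and closer to the summit.

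The shared summit at IV:4445907 lay 167 bp upstream of wapl-1 (WBGene00019953, IV:4442362-4445740, minus strand) and 309 bp upstream of htz-1 (WBGene00019947, IV:4446216-4446999, plus strand). In replicate 1 these distances were 170 and 306 bp, and in replicate 2 they were the same as in the pooled list. Of the 5 annotated wapl-1 transcripts, 4 start at the end next to the summit, and the other starts inside the gene at 4442985. The summit was nearer to wapl-1, so an assignment to the nearest gene alone would drop htz-1, and the lists cannot tell for which of these genes the protein was bound.

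The position at ash-2 (WBGene00012458, II:11979838-11989050, plus strand) depended on the transcript. The summit at 11980320 was 106 bp upstream of the first 5′ end of a coding transcript, at 11980426, and 105 and 106 bp in the replicates. It was 482 bp downstream of the most upstream 5′ end of the gene, that of the annotated non-coding transcript Y17G7B.2c, and it lay in an exon of that transcript. The other 3 summits were intergenic. ash-2 has 5 annotated transcripts with 5 different 5′ ends, ekl-4 has 2 transcripts that start 6 bp apart, and hsr-9 and htz-1 have 1 each.

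**Figure D2:**
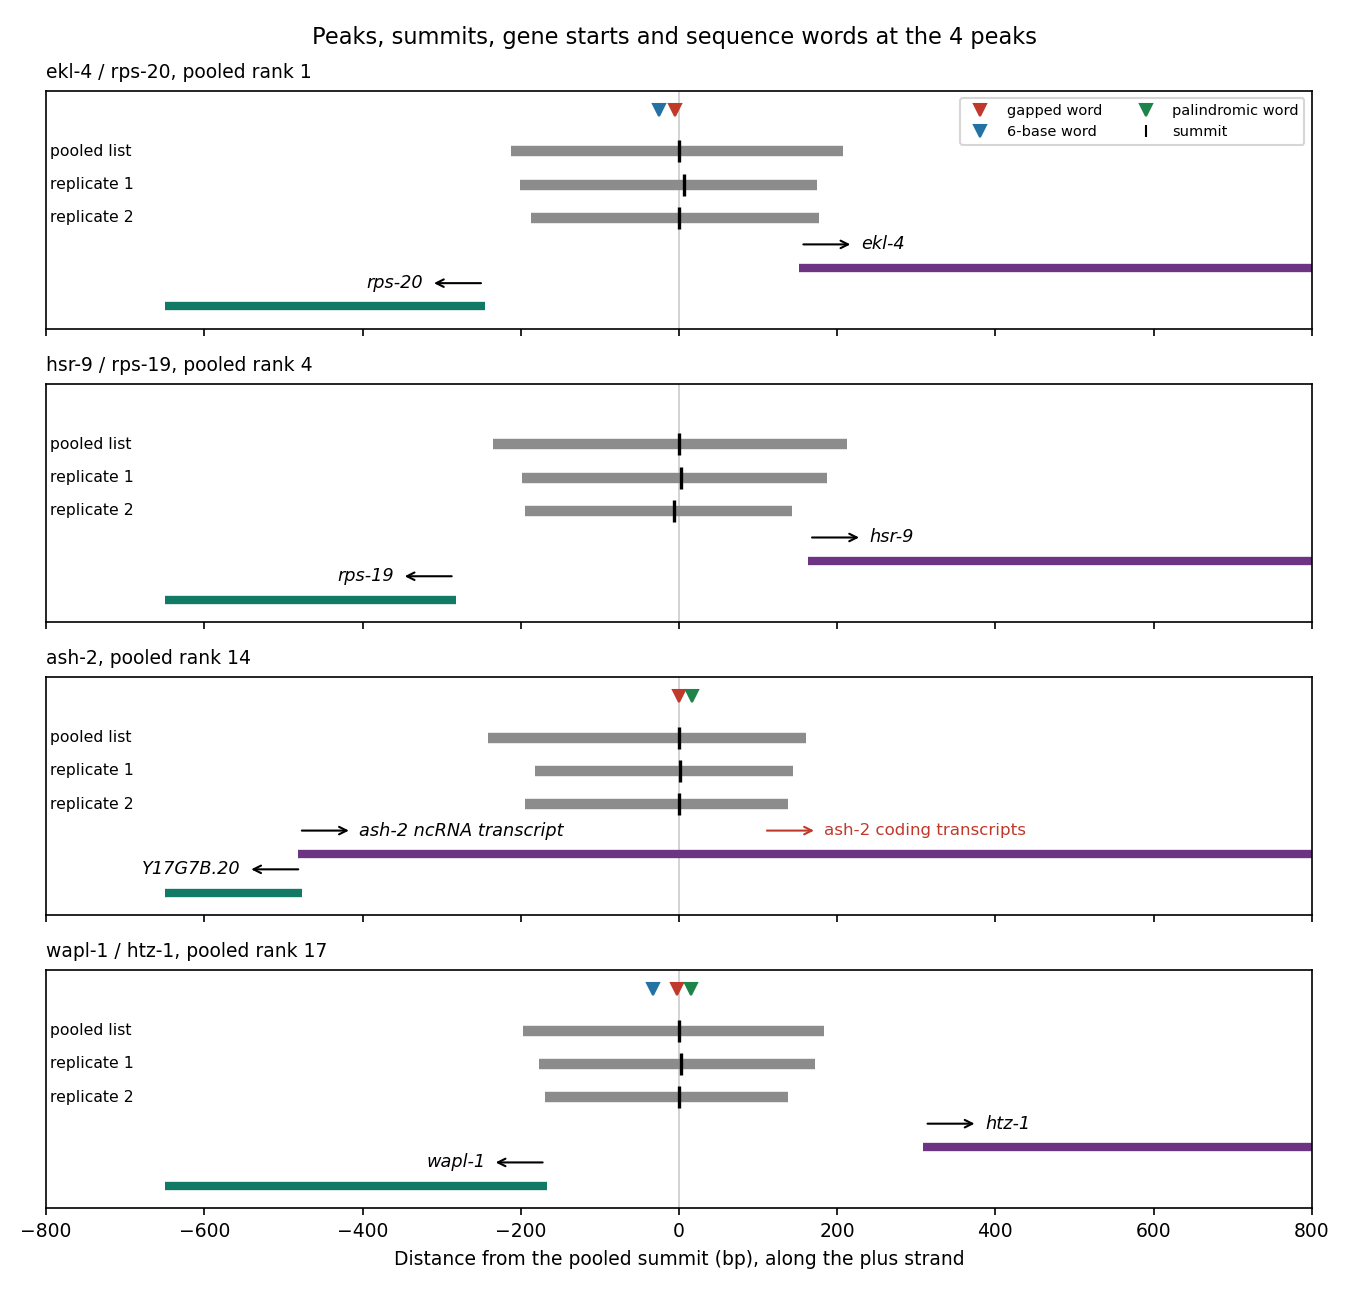
Extent of the pooled, replicate 1 and replicate 2 peaks (grey bars) with their summits (black ticks), the neighbouring genes with arrows in the direction of transcription, and the centres of the sequence words (triangles), against the distance in bp from the pooled summit along the plus strand. Gene bars are cut off at the edges of the drawing and show no exons. The summits of the 3 lists nearly coincide at each peak. All 4 lie between the 5′ end of a gene on the minus strand and that of one on the plus strand. At ash-2 this is the first coding 5′ end, and the summit lies inside the bar of the gene, which begins with its non-coding transcript. The gapped word stands on the summit in 3 of 4 panels.

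The summits were also placed closely by the 2 replicates. They were 6 bp apart at ekl-4, 8 at hsr-9, 1 at ash-2 and 3 at wapl-1 and htz-1. Among the 25 strongest reproducible peaks the median gap was 5 bp, with a range of 1 to 32, and over 275 reproducible peaks that had a match in each replicate it was 28 bp, from 0 to 155. The 25 strongest include the 4 peaks.

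Each of the 4 summits lay between the 5′ ends of genes pointing away from each other, at ash-2 counted from its coding transcripts. The partner of ekl-4 was rps-20 and that of hsr-9 was rps-19, both genes for proteins of the small ribosomal subunit, with 5′ ends 245 and 282 bp from the summit. The miRNA gene cel-mir-354 lay 857 bp from the ekl-4 summit. The partner of ash-2 was Y17G7B.20, 476 bp away, and wapl-1 and htz-1 were each other's partner. The stretches between the paired 5′ ends measured 397, 445, 582 and 476 bp for ekl-4, hsr-9, ash-2, and wapl-1 with htz-1, taking the coding start of ash-2. The summit stood at 61.7%, 63.4%, 81.8% and 35.1% of the way from the left end, so it was nearer to the chromatin gene than to the ribosomal or other partner at the first 3.

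Divergent placement was common among strong peaks in general. It was found at 14 of the 25 strongest peaks (56%, the 4 included), at 91 of the reproducible peaks (29.9%) and at 704 of 29696 other pooled peaks (2.37%). The median stretch between the 5′ ends was 460.5 bp at the 4 peaks and 541 bp over the divergent reproducible ones. A peak between divergent genes was counted for both here, and the lists cannot tell for which of them the protein was bound. With ribosomal protein genes at the ekl-4 and hsr-9 peaks the share of either gene could not be separated.

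Beside the main peak, only faint entries lay within 1000 bp of the 5′ ends in the pooled list. At ekl-4 a summit of signal 15.9 (rank 3410) lay 877 bp inside the gene, in an intron, and at hsr-9 one of 10.5 (rank 14300) lay 598 bp inside, in coding sequence. At htz-1 one of 15.1 (rank 4304) lay 936 bp downstream of the 5′ end, beyond the 3′ end of the gene. Near its internal 5′ end wapl-1 had entries of 13.1 (rank 7219), beyond the 3′ end of the gene, and 9.02 (rank 20747), in its 3′ untranslated region. None was found at ash-2 in the pooled list, and replicate 2 had one of 6.02 (rank 20425) there. The entries of the pooled list were all below the weakest reproducible peak.

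The entries just outside the 1000 bp limit were likewise weak. The nearest were at 1294 bp upstream of ekl-4 (signal 24.6, rank 586) and 1312 bp upstream of hsr-9 (11.3). Others were 1412 bp upstream of wapl-1 (15.1, the same entry as the one given above for htz-1) and 1599 bp downstream of the htz-1 5′ end (7.66). At ash-2 it was 1557 bp upstream of the non-coding 5′ end (12.6). The main peaks, at 106 to 309 bp, were far inside the limit. The closest other reproducible summit was 6270 bp away at hsr-9, where it is the peak of lin-53, and 12108 bp from the non-coding 5′ end of ash-2. It was 52319 bp from the internal 5′ end of wapl-1, 55550 bp from the 5′ end of htz-1 and 287307 bp from the second 5′ end of ekl-4.

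The gapped word was found in 3 of the 4 summit windows, those of ekl-4, ash-2, and wapl-1 with htz-1. At ekl-4 it lay from 10 bases before the summit to the summit base itself, with GT in its gap. hsr-9 did not hold it, in the 200 bp window or in one of 300 bp. The word was in 10 of the other 21 peaks among the 25 strongest (47.6%), in 15 of the other 300 reproducible windows (5%) and in 32 of 29696 other pooled windows (0.108%). Over the stretches of 200 bp upstream of protein-coding genes it was in 37 of 19985 (0.185%). It was spread by rank as 13 of the 25 strongest, 4 of the next 25, 1 of the 102 after that, and none of the remaining reproducible windows or of the 696 pooled windows that follow.

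Its place relative to the summit was narrow. In 16 of the 18 reproducible windows with the gapped word, the centre of the word lay within 20 bp of the summit, and the median distance was 10.5 bp. Most copies of the word were at no peak. Of 579 in the genome, 18 had their centre within 100 bp of a reproducible summit (3.11%) and 53 within 100 bp of any pooled summit (9.15%). The word was kept after 29 spellings had been compared by their shares by rank and their distance from the summit in these same windows, so its frequency, its decline with rank and its place are descriptions of the choice as much as of the peaks.

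The palindromic word was in the ash-2 and the wapl-1 and htz-1 windows, from 11 to 23 and from 9 to 21 bases after the summit. It was in 6 of the other 21 strongest windows (28.6%), 23 of the other 300 reproducible windows (7.67%) and 133 of the other pooled windows (0.448%), and upstream of 0.345% of protein-coding genes. Of 1930 copies in the genome, 29 had their centre within 100 bp of a reproducible summit (1.5%). A shorter word, CCTGC, was at ekl-4, hsr-9 and ash-2, and it was common elsewhere, in 18 of the other 21 strongest (85.7%), 99 of the other 300 reproducible (33%) and 12.9% of the other pooled windows. At ekl-4 and ash-2 a copy of CCTGC overlapped the start of the gapped word, so these are in part the same bases. The hsr-9 window, rank 4, held this short word but neither of the longer ones.

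**Figure D3:**
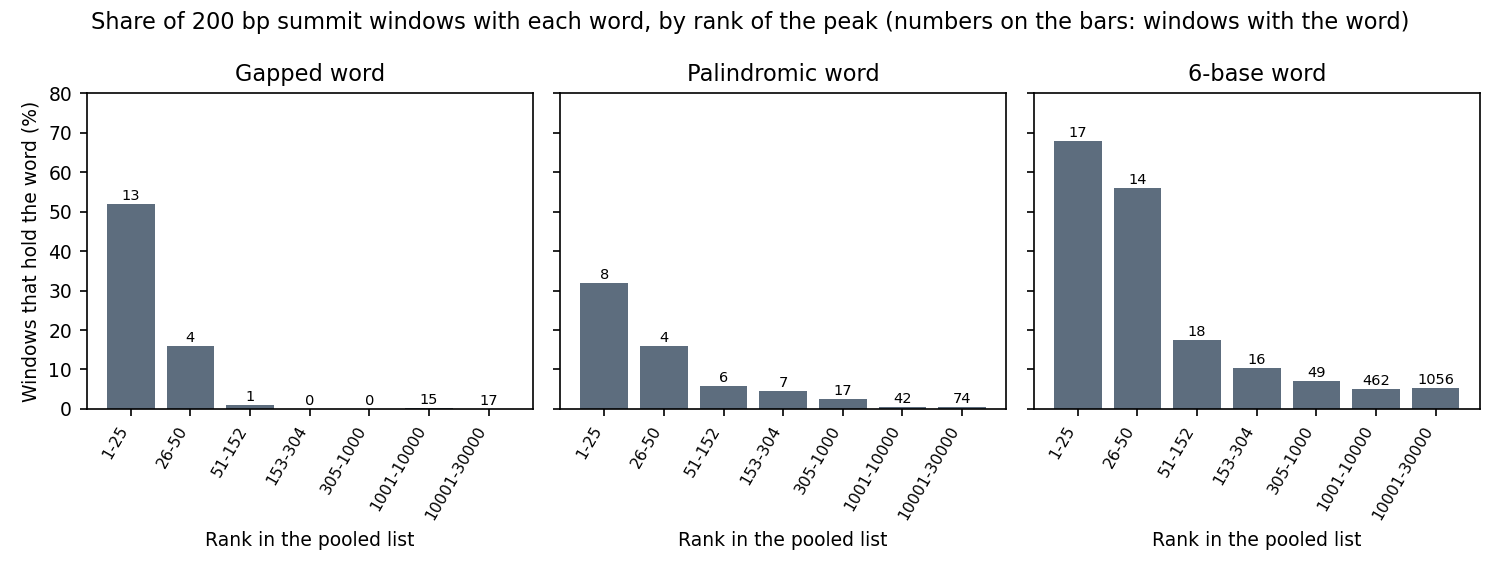
Percentage of 200 bp summit windows that hold the gapped word, the palindromic word or the 6-base word ACCGTA, on either strand, in bins of rank in the pooled list, with the number of windows holding the word above each bar. The gapped word is in 13 of the 25 strongest windows and in none of the 2 bins that end at rank 1000, while ACCGTA declines more slowly with rank.

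Of 6 shorter words known from earlier results on these peaks, ACCGTA was in 2 of the 4 windows, 28 bases before the summit at ekl-4 and 35 before it at wapl-1 and htz-1. ACGCAG was at ekl-4 and hsr-9, 11 and 13 bases before the summit, and AGCGCG was present in 2 copies at wapl-1 and htz-1. At ekl-4 the ACGCAG copy, on the minus strand, overlapped both the gapped word and CCTGC, so these are in part the same bases. GCGCAC was in none of the 4, nor was GAGCGC, nor the longer word TGCGTCTC. Over all reproducible windows, against the other pooled windows, ACCGTA was in 21.4% against 5.28%, ACGCAG in 26.6% against 4.88% and AGCGCG in 19.1% against 2.42%. Words were sought on both strands, and AGCGCG can overlap with GAGCGC. No word of those searched was in all 4 windows. Of all 6-base words, 2 were in all 4 windows. AAAAAT was in 59.2% of reproducible and 73.5% of other pooled windows, and for AAATTG the shares were 35.9% and 45%.

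Base composition differed among the 4 windows. The GC content was 34.5% at ekl-4, 35.5% at ash-2, 46% at hsr-9 and 50.5% at wapl-1 and htz-1. The median was 44% over reproducible and 34.5% over other pooled windows, so the GC content at ekl-4 equalled the median of the weaker peaks.

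To place the 5 genes among their functional relatives, 11 lists of chromatin genes, 258 genes in all, were searched for summits within 1000 bp of an annotated 5′ end. The lists hold the 5 genes and were drawn up with earlier results on these peaks known. Of the 258, 20 had a reproducible peak (7.75%), against 1.76% of all protein-coding genes (352 of 19985). Without the 5 genes it was 15 of 253 (5.93%). Any pooled peak was near 62.4% of the list genes, or 61.7% without the 5 genes, against 53% of protein-coding genes. The median signal of the strongest such peak was 12.7 for the list genes and 11.5 for protein-coding genes. These are counts, with no test of the lists. Of the 20 genes, 10 had a peak whose rank in both replicate lists would place it among as many strongest peaks as are reproducible (50%), or 5 of 15 without the selected ones (33.3%), against 201 of 352 protein-coding genes (57.1%).

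Among the relatives of ekl-4 and htz-1, 3 of 12 genes of NuA4/TIP60 and of H2A.Z exchange had a reproducible peak, and the third was epc-1, the enhancer of polycomb subunit, with a pooled signal of 37.3. The next below was mrg-1 at 22.3. The median of the list was 14.8. Without ekl-4 and htz-1, which were chosen for their signal, it was 1 of 10 (10%, against 1.76% of all protein-coding genes). Among histone genes, 2 of 83 had one, htz-1 and his-37 (83.7), and the next were his-31 and his-32, which share a peak of 30.1. Without htz-1 it was 1 of 82 (1.22%), a share near that of all protein-coding genes. Histone genes exist in near-identical copies, so reads may have been split or misplaced among them.

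Among the relatives of ash-2, 2 of 18 genes of H3K4 methylation had a reproducible peak. The second was set-16, the MLL-type methyltransferase gene, at 119, although drr-2 was the nearest gene to that peak. The next, cfp-1, was at 16.2. Without ash-2 it was 1 of 17 genes (5.88%). Of 14 cohesin genes, 4 had one. They were wapl-1, the loader gene scc-2 (45), the kleisin gene scc-1 (38.9) and the securin gene ify-1 (34.5). Without wapl-1 it was 3 of 13 (23.1%). The scc-1 peak was nearest to rpn-5, 12 bp from its 5′ end. The ify-1 peak also lay within 1000 bp of the 5′ end of a ribosomal protein gene, and it ranked 1028 in replicate 1. Of 13 condensin and dosage compensation genes none did, which at a background of 1.76% sets the list apart in no way, and the strongest peak there was at hcp-6 (22.6).

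Among the relatives of hsr-9, 2 of 39 genes of the DNA damage response had a reproducible peak, the other being lig-4, the ligase of end joining, at 35.8. That peak ranked only 2431 in replicate 1 and was nearest to cux-7, 13 bp from its 5′ end. Next was brc-1 at 31.2, just under the weakest reproducible signal of 32.2. Without hsr-9 it was 1 of 38 genes (2.63%), near the 1.76% of all protein-coding genes. The median of this list was 11.4, about that of all protein-coding genes.

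In the other lists, the DREAM and synMuv genes had 3 of 11 (27.3%, against 1.76% of all protein-coding genes). They were lin-53, a histone-binding subunit, at 172, lin-54, the DNA-binding subunit of DREAM, at 136 and lin-9 at 36.4. The lin-54 peak was nearest to rpl-12, 23 bp away. Histone acetylation had 2 of 21 (9.52%), cbp-1 of the CBP/p300 family at 129 and hat-1 at 40.2. Nucleosome remodelling had 3 of 19 (15.8%), with pbrm-1 at 47.5, chd-7 at 37.3 and swsn-3 at 32.4. The chd-7 peak had no match within 100 bp in replicate 1, and the swsn-3 and hat-1 peaks ranked only 3317 and 3232 in replicate 2. The cbp-1, pbrm-1 and chd-7 summits lay 857, 881 and 840 bp from the 5′ end, so a limit of 500 bp would drop them. Methylation of H3K9, H3K27 and H3K36 had none of 17, led by met-1 at 21.4, and histone chaperones none of 12, led by chaf-2 at 16.4, and in lists this short a count of 0 is near the background.

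**Figure D4:**
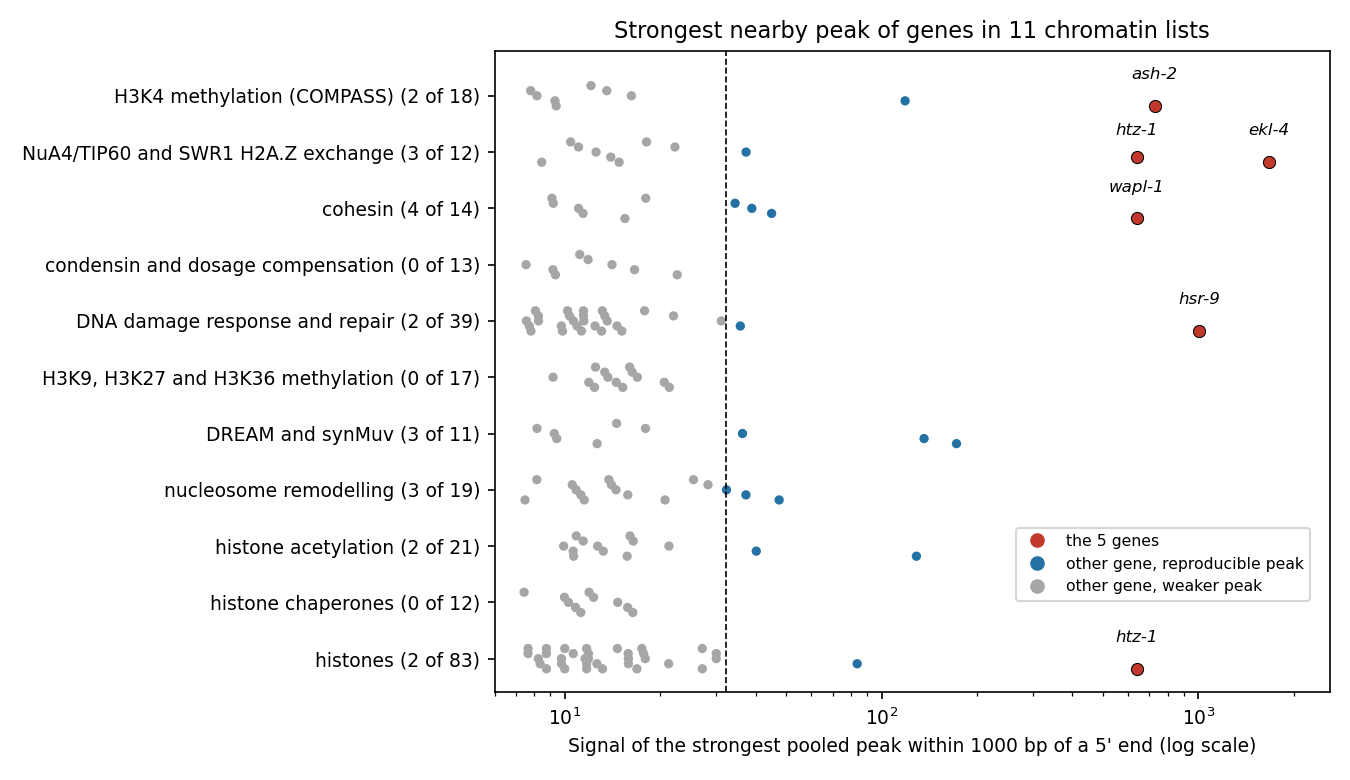
Pooled signal, on a log scale, of the strongest peak within 1000 bp of an annotated 5′ end for the genes of 11 chromatin lists that have one, with the weakest reproducible signal of 32.2 as a dashed line and the number of genes with a reproducible peak in brackets. The 5 selected genes (red; htz-1 is in 2 lists) lie at 639 or more, and the strongest other gene, lin-53, is at 172.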

How the data were processed

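ChIP-seq peak lists of 2 biological replicates of whole L4 larvae were used. Text files deposited beside the peak lists say that the authors made each replicate list against 1 control file, pooled both replicates for the pooled list, and thresholded the reproducible list on the IDR. The control reads and the ce10 lists were not analysed here. For the aligner and peak caller, no name or version is given in the sources used here. The deposited signal of each peak is the authors' value, and it was used for ranks within a list.

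The ce11 lists were joined to the WBcel235 genome and Ensembl release 115 annotation (Python 3.11, numpy 2.4.6). Summits within 1000 bp of any annotated 5′ end were assigned to a gene, and peaks of different lists were matched within 100 bp. Windows were 200 bp. The distance search was tested with made-up summits around annotated 5′ ends, and the search for the 6 words with ACCGTA planted in random sequence of A and T only. Such sequence holds no other copy of these words, so false finds were not tested. The search for the gapped, palindromic and short words was not tested in this way. No statistical test was run. The members, gene lists and 6 words were chosen with earlier results of these data known, and the gapped, palindromic and short words after reading the windows and comparing 29 spellings by their shares by rank. Genes named are the 5 members, genes within 1000 bp of their summits, the 2 nearest reproducible peaks in rank, and in each list up to 4 genes with a reproducible peak and the next below. No symbol match was found for swsn-2.1, swsn-8 and mys-3. Coordinates are 1-based.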

Additional observations from a re-analysis of the deposited data

How the results depend on the processing

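The 5 genes were chosen for strong peaks, so their count stayed at 5 by that choice with the reproducible list ended at its middle rank and with either replicate left out (5 to 5), where as many strongest peaks of the other replicate stood in for the reproducible list. It was also 5 at 500 bp. There were 4 with a limit of 200 bp or with the nearest gene only, htz-1 being lost in both. The number of chromatin list genes fell from 20 to 9 at 200 bp and to 10 with the list ended at its middle rank, and ran from 15 to 17 with a replicate left out. The number of protein-coding genes fell from 352 to 131 at 200 bp, 226 with the nearest gene only and 211 with the list so ended, and ran from 312 to 347 with a replicate left out. ACCGTA stayed in 2 of the 4 windows with either replicate's summits (2 to 2). Of 35 alternatives for single genes, with distances unsigned, 27 were labelled the same, 8 moved and 0 reversed. These labels did not follow the size of the change. Some could not move. The limit for matching peaks of different lists does not enter a pooled rank, and hsr-9 and htz-1 have 1 annotated 5′ end each. The peak of wapl-1 and htz-1 was counted under both names. The ash-2 distance moved most, from 106 bp to 482 bp from its most upstream 5′ end. The other moves were of 6 bp or less, or from rank 17 to 16. Ranks of 6 and 3 for hsr-9, against 4, were labelled the same, while 105 bp against 106 bp at ash-2 was labelled moved. Windows of 100 and 300 bp and single-replicate summits, added after the data were seen, left the gapped word in 3 and the palindromic word in 2 of the 4 windows. With 2 replicates of 1 strain, control reads not analysed here and unknown depth, the data set no error on a signal. No paired analysis was possible because there was only 1 group and no test.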
